A study of Mus musculus with 4 samples.

Results

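Interferon-stimulated genes are the transcripts that cells raise when an interferon binds its receptor, and 41 of them, listed by symbol, are described here in CD8 T cells taken from mouse tumours. All 41 symbols were found among the 45773 genes kept from the deposited tables, and all 41 had a mean of at least 1 TPM (a transcript's share of its library, corrected for transcript length) over the 4 libraries. Gene expression had been measured by SMART-seq, which amplifies full-length cDNA from little RNA, in 1 library per group. The Klf4 library held PmelI CD8 T cells, whose transgenic antigen receptor recognises gp100, transduced with the transcription factor Klf4, and the MigRI library held PmelI CD8 T cells transduced with the retroviral vector MigRI alone. Both kinds of cell had been injected on day 7 into Rag2 KO mice bearing tumours of 300000 implanted MC38-gp100 colon carcinoma cells, and the GFP+ cells were taken from the tumours on day 15. Rag2-deficient hosts make no T or B cells of their own but keep myeloid and stromal cells. The other pair of libraries held PD1+ CD8+ tumour-infiltrating lymphocytes taken on day 14 from MC38 tumours, likewise of 300000 implanted cells, in mice labelled Klf4 cKO and in control (WT) mice, here called the cKO-labelled library and control. The labels used here give no strain, age or Cre driver, and 10000 to 20000 cells were collected per sample.

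Interferons alpha and beta signal through the receptor chains IFNAR1 and IFNAR2 and the kinases JAK1 and TYK2, and a complex that holds STAT2 and IRF9 then assembles on the interferon-stimulated response element in target promoters. Interferon gamma, a main product of activated CD8 T cells, signals through IFNGR1 and IFNGR2 and the kinases JAK1 and JAK2, and the factors they activate bind the gamma-activated site. Both routes share many target genes, which encode antiviral enzymes, nucleic acid sensors, GTPases and further transcription factors of the same pathway.

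To show these elements on the members with the largest differences, promoter windows of 300 bases (250 before and 50 after the annotated start) were taken from RefSeq on GRCm38.p6, the mm10 build. Capitals mark each match, on either strand, to the core of the response element, which is GAAA and GAAA parted by any 2 bases, or of the gamma-activated site, which is TTC and GAA parted by any 3 bases. Rsad2 and Irgm1 were the response element holders with the highest relative differences for Klf4 over MigRI, Irgm1 and Oas1a those for the cKO-labelled library over control, and Irf1 was set beside them for its role. Isg15 was added after its values were seen, because it holds 3 overlapping response element matches and was not among the higher members.
Rsad2, chr12:26456403-26456702, minus strand: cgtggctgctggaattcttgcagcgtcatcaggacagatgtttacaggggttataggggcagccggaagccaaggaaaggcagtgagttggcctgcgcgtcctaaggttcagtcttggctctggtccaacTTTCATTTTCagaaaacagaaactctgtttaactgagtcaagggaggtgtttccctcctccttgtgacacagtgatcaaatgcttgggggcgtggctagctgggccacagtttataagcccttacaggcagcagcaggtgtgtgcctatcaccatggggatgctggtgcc
Irgm1, chr11:48871371-48871670, minus strand: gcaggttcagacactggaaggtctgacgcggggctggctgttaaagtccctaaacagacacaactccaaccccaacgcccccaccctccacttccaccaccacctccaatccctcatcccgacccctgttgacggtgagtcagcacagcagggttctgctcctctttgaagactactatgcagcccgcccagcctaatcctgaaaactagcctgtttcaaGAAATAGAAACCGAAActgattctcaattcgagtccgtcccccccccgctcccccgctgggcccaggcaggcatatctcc
Oas1a, chr5:120907476-120907775, minus strand: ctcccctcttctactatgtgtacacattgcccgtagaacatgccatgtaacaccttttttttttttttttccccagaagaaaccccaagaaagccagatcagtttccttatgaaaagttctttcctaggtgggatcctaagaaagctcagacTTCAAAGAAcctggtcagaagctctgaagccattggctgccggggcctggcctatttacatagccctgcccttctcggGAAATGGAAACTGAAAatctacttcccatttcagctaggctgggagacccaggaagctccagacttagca
Irf1, chr11:53769764-53770063, plus strand: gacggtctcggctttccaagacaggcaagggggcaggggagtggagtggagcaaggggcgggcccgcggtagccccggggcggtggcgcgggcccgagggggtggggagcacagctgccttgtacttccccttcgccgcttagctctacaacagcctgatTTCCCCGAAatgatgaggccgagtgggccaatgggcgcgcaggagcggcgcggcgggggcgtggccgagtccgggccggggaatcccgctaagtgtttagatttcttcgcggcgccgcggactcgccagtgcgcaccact
Isg15, chr4:156200769-156201068, minus strand: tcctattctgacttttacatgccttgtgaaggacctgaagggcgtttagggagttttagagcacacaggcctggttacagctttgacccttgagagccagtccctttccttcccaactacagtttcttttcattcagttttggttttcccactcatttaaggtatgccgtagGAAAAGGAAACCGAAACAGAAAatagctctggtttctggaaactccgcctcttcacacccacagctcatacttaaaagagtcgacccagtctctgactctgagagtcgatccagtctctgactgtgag

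Counting the annotated start as +1, the Rsad2 match lay from -120 to -111 on the reverse strand. The paired matches of Irgm1 lay from -30 to -15 and those of Oas1a from -20 to -5, so in both genes 2 matches overlap each other just before the start. The 3 overlapping matches of Isg15 lay from -78 to -57. The Irf1 window held no response element match and a single gamma-activated site match, TTCCCCGAA from -90 to -82, and the Oas1a window held one too, TTCAAAGAA from -98 to -90. Windows were found for 30 of the 41 members. The response element letters occurred in the windows of 16 of these 30 genes (53.3%), against 3.99% of all 27025 genes with a window and 4.31% of the measured ones. The gamma-activated site letters occurred in 7 of 30 (23.3%), against 9.55% of all genes and 8.21% of the measured ones. In no window outside Bst2 did a match to one motif overlap a match to the other. A match to these letters is a description and not evidence of binding.

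Every difference given here is a difference of log2(TPM + 1) between the libraries of one pair, which understates the change of low genes. Over the 12570 measured genes the median of this difference was 0.79 for Klf4 over MigRI and 0.74 for the cKO-labelled library over control, so most genes were higher in the first-named library as deposited. A relative difference is the difference minus that median, so that it is centred on the median gene, and a gene was called at 1 log2, which is 2-fold. Since each group is a single library, no test was made, and each count describes these libraries only.

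Klf4 itself was at 26.05 TPM in the Klf4 library and 8.69 TPM in the MigRI library, and at 9.28 TPM in the cKO-labelled library and 7.52 TPM in control. The relative difference of Klf4 was 0.69 in the first pair and -0.47 in the second, and since Klf4 was not lower as deposited in the cKO-labelled library, these values do not check that label. Read depth is unknown from TPM, and no counting interval can be given without it. The number of genes reaching 1 TPM was 13170 with Klf4, 11011 with MigRI, 11937 in the cKO-labelled library and 10542 in control. The 10 genes of a CD8 T cell list, led by Trbc2 and Trbc1, summed to 5752 TPM in the Klf4 library and 24367 TPM in the MigRI library, and to 18257 TPM in the cKO-labelled library and 7771 TPM in control, with none listed at 0. Once centred, 9 of the 10 were at least 2-fold lower and 0 higher with Klf4, while 5 were higher and 1 lower in the cKO-labelled library. The labelled cell type was thus seen in all 4 libraries, beside transcripts of other cells. The 15 macrophage and monocyte genes, led by Spp1 and Cd74, summed to 19044 TPM in the Klf4 library and 3881 TPM in the MigRI library, and to 4220 TPM in the cKO-labelled library and 2219 TPM in control, with none listed at 0. Of the 14 that were measured 11 were at least 2-fold higher and 0 lower with Klf4 once centred, and 7 were higher and 2 lower in the cKO-labelled library. The 9 fibroblast and endothelium genes, led by Sparc and Dcn, summed to 1284 TPM in the Klf4 library and 135 TPM in the MigRI library, and to 246 TPM in the cKO-labelled library and 30.5 TPM in control, with Cdh5 listed at 0 in control. Of the 8 measured, 7 were at least 2-fold higher and 1 lower with Klf4 once centred, and 2 were higher and 0 lower in the cKO-labelled library. As background for each marker list, 21.4% of all measured genes were higher and 23.6% lower with Klf4 once centred. In the cKO-labelled library 12.4% were higher and 16.2% lower. Neutrophil and mast cell genes, led by S100a8 and Tpsb2, summed to 141 TPM in the Klf4 library and 28.7 TPM in the MigRI library. They summed to 65.2 TPM in the cKO-labelled library and 29.3 TPM in control. Of the 6 measured, 4 were at least 2-fold higher and 0 lower with Klf4 once centred, and 3 were higher and 2 lower in the cKO-labelled library. Dendritic cell, B cell, NK cell and tumour epithelium genes summed to at most 23.7 TPM per list in any library. The B cell marker Ms4a1 was listed at 0 in all 4 libraries. In such bulk samples fewer cells of a type and less RNA per cell cannot be told apart.

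**Figure D1:**
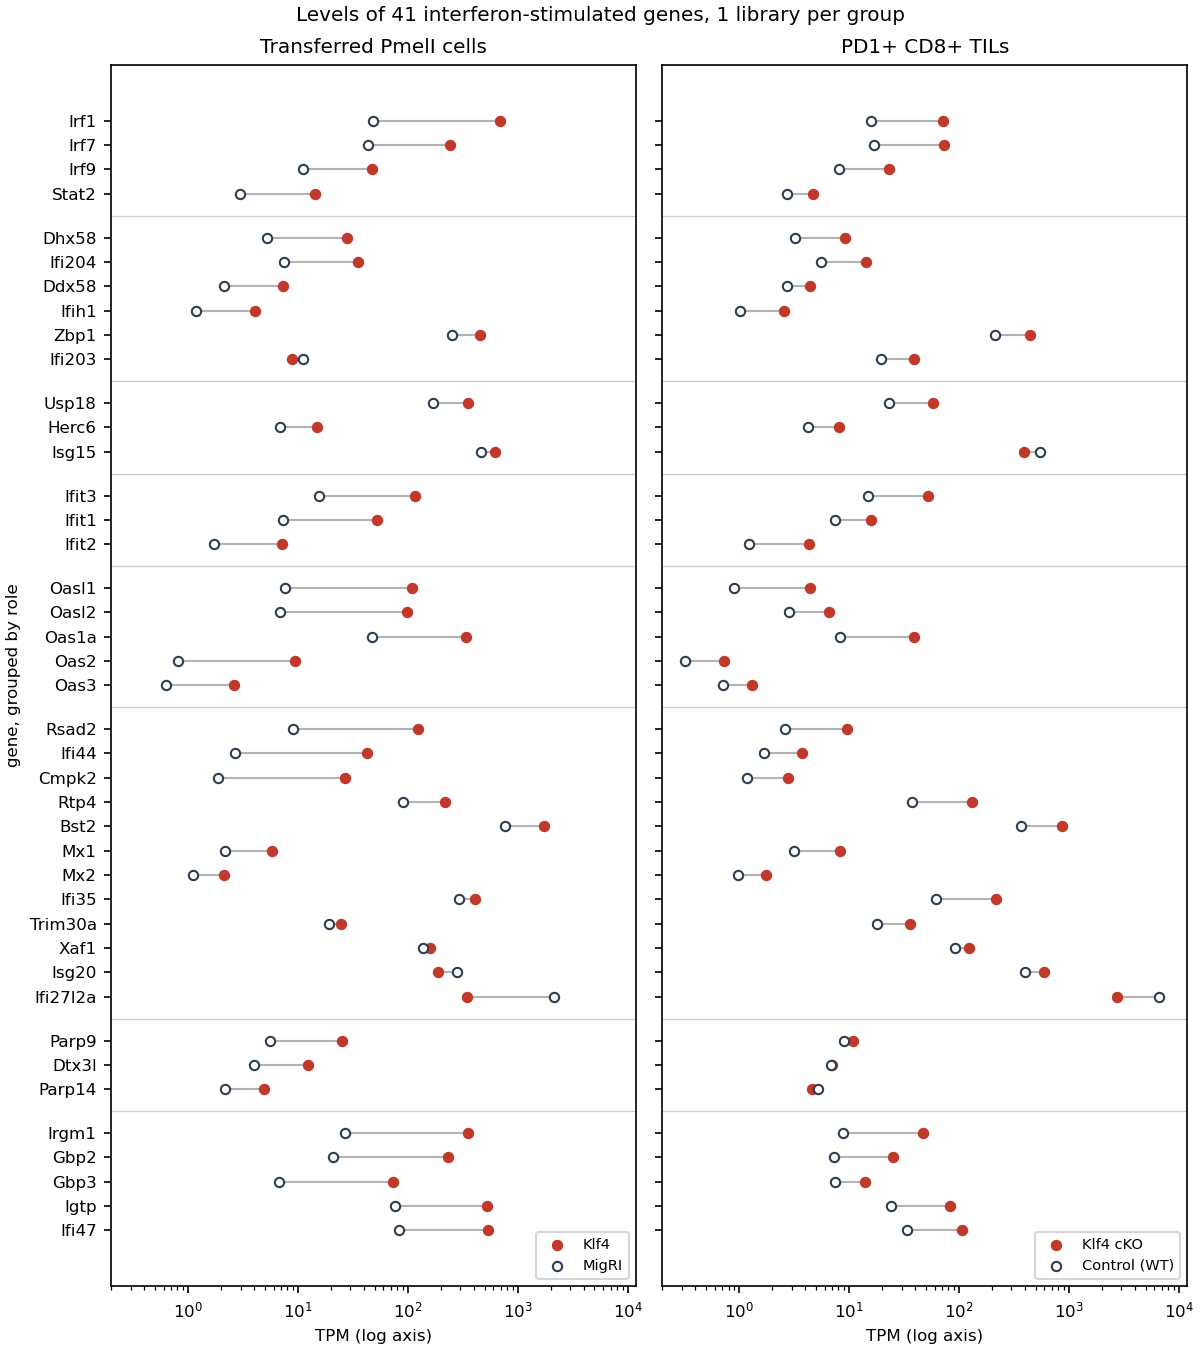
TPM of each of the 41 genes (log axis), grouped by role, in the Klf4 and MigRI libraries (left) and in the libraries labelled Klf4 cKO and control (right), with 1 point per library and no error bars. In the left panel all filled points except those of Ifi203, Isg20 and Ifi27l2a lie to the right of the open ones.

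The comparison of Klf4 with MigRI asked which transcripts differ in tumour-infiltrating CD8 T cells given more Klf4. Most interferon-stimulated genes were higher in the Klf4 library. Irf1, the OAS-like genes Oasl1 and Oasl2, the antiviral enzyme Rsad2 and the GTPase Irgm1 stood highest, with relative differences of 3.02, 2.88, 2.88, 2.86 and 2.85. Once centred, 21 of 41 members (51.2%) were at least 2-fold higher, where 21.4% of all measured genes were. At the other end 3 of 41 (7.32%) were at least 2-fold lower, where 23.6% of all measured genes were, and these were Ifi27l2a, Isg20 and Ifi203. As deposited, 31 of 41 (75.6%) were higher, where 43.7% of all genes were, and 1 (2.44%) was lower, where 10.3% were.

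The median difference of the 41 members was 1.96, or 1.17 once centred. The median rank of the members among the measured genes was the 81.1st percentile in the Klf4 library and the 59.4th percentile in the MigRI library, and 33 of 41 members ranked higher in the Klf4 library. The direction of 31 members was the same as deposited, once centred, relative to the receptor constant genes Trac, Trbc1 and Trbc2 and under each of the 4 other scalings tried, except that Ifi27l2a, one of the 31, was removed with the 50 most abundant genes in one of them. It turned under at least one of them for Isg15, Isg20, Ifi203, Ifi35, Mx2, Trim30a, Xaf1, Parp14, Zbp1 and Herc6. Under median of ratios scaling 20 members were higher and 3 lower, against 31 and 1 as deposited. Among the 25 members whose exons overlap no other annotated gene, 12 were past 2-fold upward and 2 downward once centred. Macrophage, fibroblast and CD8 T cell markers differed between these libraries too, as given above, and their part in the result was not tested.

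Setting the cKO-labelled library beside control asked which transcripts differ in PD1+ CD8 T cells of mice with a conditional Klf4 knockout. Most interferon-stimulated genes were higher as deposited, but so were most other genes, and once centred the share of higher members was near the background. Irgm1, Oas1a, Irf1 and Irf7 had the highest relative differences, 1.56, 1.38, 1.36 and 1.33, and Ifi27l2a and Isg15 the lowest, -2.02 and -1.23. Once centred, 7 of 41 members (17.1%) were at least 2-fold higher, where 12.4% of all measured genes were, and 2 of 41 (4.88%) were at least 2-fold lower, where 16.2% were. The 7 were Irgm1, Oas1a, Irf1, Irf7, Ifi35, Rtp4 and Ifit3. As deposited, 20 of 41 (48.8%) were higher, where 38.4% of all genes were, and 1 (2.44%) was lower, where 6.92% were.

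The median difference of the 41 members was 0.99, or 0.25 once centred. The median rank of the members was the 66.6th percentile in the cKO-labelled library and the 64.8th percentile in control, and 27 of 41 members ranked higher in the cKO-labelled library and 14 lower. These counts moved with the scaling. Under median of ratios scaling 4 members were higher and 2 lower, against 20 and 1 as deposited. Relative to Trac, Trbc1 and Trbc2 0 were higher and 12 lower. That centre was 1.76, against 0.74 for the median gene, so all measured genes moved down with the members. Of the 41 members, 9 kept their direction under each of these scalings that held them, Ifi27l2a being again removed with the 50 most abundant genes, namely Irf1, Irf7, Irgm1, Oas1a, Ifi35 and Rtp4, which were higher, and Ifi27l2a, Isg15 and Parp14, which were lower. All other directions in this pair turned with at least one scaling, so values rather than directions are given for those members. Some of them, such as Ifit1, Ifit3, Rsad2, Gbp2 and Igtp, turned only relative to Trac, Trbc1 and Trbc2. The values there were -0.008 for Ifit3 and -0.029 for Igtp. Others, such as Stat2 and Ddx58, turned under further scalings too. CD8 T cell, macrophage and fibroblast markers differed between these libraries as well, and their part in the result was not tested.

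**Figure D2:**
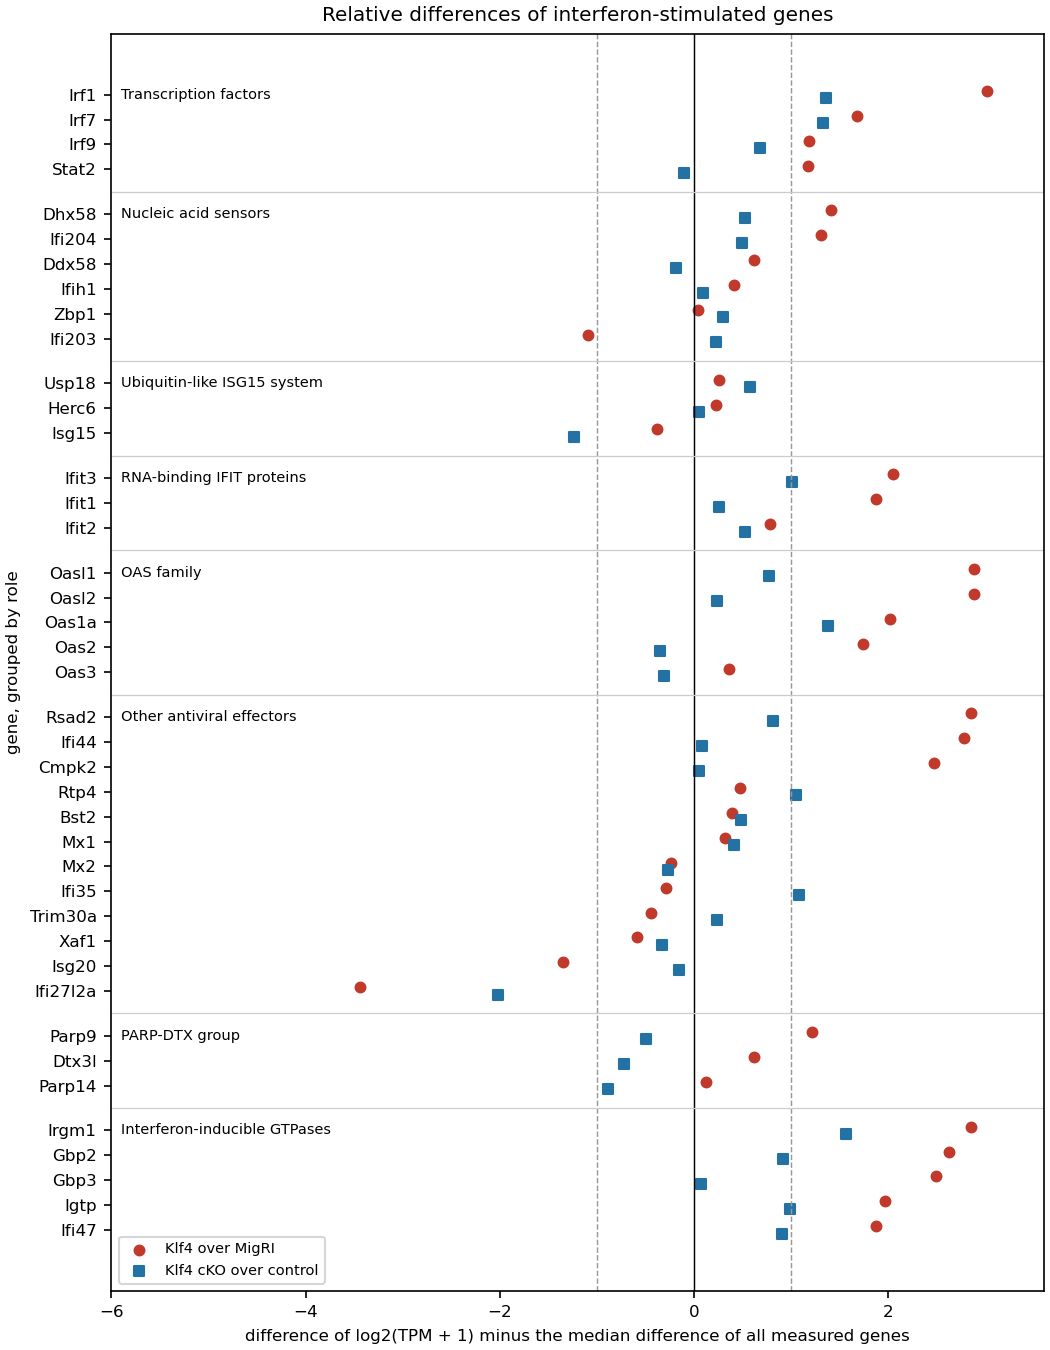
Difference of log2(TPM + 1) minus the median difference of all measured genes for each of the 41 members, grouped by role, for Klf4 over MigRI (circles) and for the cKO-labelled library over control (squares), with dashed lines at 2-fold. All 4 transcription factors and all 5 genes of the interferon-inducible GTPase group lie beyond 2-fold for Klf4 over MigRI. Ifi27l2a lies beyond 2-fold lower in both comparisons.

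The 4 transcription factors of the list are the part of the pathway that carries the signal to the genes. Irf1, which is induced in cells that meet interferon gamma, was at 687 TPM in the Klf4 library and 48.00 TPM in the MigRI library, a 14.3-fold ratio and a relative difference of 3.02. It was at 70.9 TPM in the cKO-labelled library and 15.8 TPM in control, a relative difference of 1.36. In both pairs Irf1 was higher under every scaling tried, and its promoter window, printed above, holds a match to the gamma-activated site letters. Irf7, the factor that amplifies transcription of the interferon alpha genes, was at 244 TPM in the Klf4 library and 43.1 TPM in the MigRI library, a relative difference of 1.68, and at 73.6 TPM in the cKO-labelled library and 16.8 TPM in control, a relative difference of 1.33. Irf9, the DNA-binding partner of STAT2, was at 46.9 TPM in the Klf4 library and 11.2 TPM in the MigRI library, a relative difference of 1.18, and at 23.2 TPM in the cKO-labelled library and 8.06 TPM in control, a relative difference of 0.68. Stat2, which joins IRF9 in the same complex, was at 14.4 TPM in the Klf4 library and 2.95 TPM in the MigRI library, a relative difference of 1.17, and at 4.73 TPM in the cKO-labelled library and 2.69 TPM in control, a relative difference of -0.10. The 4 factors were thus all at least 2-fold higher with Klf4 once centred, while 2 of 4 were in the cKO-labelled library.

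The 6 nucleic acid sensors differed less. Dhx58, which encodes LGP2, the regulator of the other RNA helicase sensors, was at 27.9 TPM in the Klf4 library and 5.25 TPM in the MigRI library, a relative difference of 1.41. Ddx58, which encodes the RNA sensor RIG-I, was at 7.28 TPM in the Klf4 library and 2.11 TPM in the MigRI library, a relative difference of 0.62. Ifih1, which encodes MDA5, a sensor of long double-stranded RNA, was at 4.04 TPM in the Klf4 library and 1.18 TPM in the MigRI library, a relative difference of 0.41. All 3 helicases were higher with Klf4 under every scaling tried, and of them Dhx58 alone passed 2-fold once centred. In the PD1+ cells Dhx58 was at 9.10 TPM in the cKO-labelled library and 3.22 TPM in control, Ddx58 at 4.43 TPM in the cKO-labelled library and 2.71 TPM in control, and Ifih1 at 2.56 TPM in the cKO-labelled library and 1.01 TPM in control, with relative differences of 0.52, -0.19 and 0.09. Zbp1, a sensor of Z-form nucleic acid that can start necroptosis, was at 453 TPM in the Klf4 library and 253 TPM in the MigRI library, and at 439 TPM in the cKO-labelled library and 213 TPM in control, so it ran far above the helicases in all 4 libraries. Its relative differences were 0.04 and 0.30. Ifi204 and Ifi203 belong to the family of DNA-binding proteins with a HIN domain. Ifi204 was at 35.2 TPM in the Klf4 library and 7.43 TPM in the MigRI library, a relative difference of 1.31, and at 14.3 TPM in the cKO-labelled library and 5.50 TPM in control, a relative difference of 0.50. With Klf4, Ifi204 passed 2-fold as Dhx58 did. Ifi203 was at 8.91 TPM in the Klf4 library and 11.2 TPM in the MigRI library, a relative difference of -1.09, and at 38.9 TPM in the cKO-labelled library and 19.4 TPM in control, a relative difference of 0.23. Once centred, Ifi203 was thus the only one of the 6 sensor genes lower with Klf4, and it was higher when set against the receptor constant genes. Its exons overlap those of the neighbouring family gene Mndal, so reads of the 2 genes could be split between them.

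The ISG15 system attaches a ubiquitin-like protein to other proteins. Isg15, the modifier itself, was at 619 TPM in the Klf4 library and 464 TPM in the MigRI library, a relative difference of -0.38, and at 388 TPM in the cKO-labelled library and 547 TPM in control, a relative difference of -1.23. Its direction for Klf4 over MigRI turned with the scaling, and in the other pair it was lower in the cKO-labelled library under every scaling tried. Usp18, the protease that removes ISG15 and also restrains the interferon receptor, was at 354 TPM in the Klf4 library and 170.5 TPM in the MigRI library, a relative difference of 0.26, and at 58.6 TPM in the cKO-labelled library and 22.97 TPM in control, a relative difference of 0.58. Herc6, the main ligase for ISG15 in mouse, was at 14.97 TPM in the Klf4 library and 6.86 TPM in the MigRI library, and at 8.03 TPM in the cKO-labelled library and 4.22 TPM in control, with relative differences of 0.23 and 0.05. No gene of this system was at least 2-fold higher once centred in either comparison.

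The IFIT proteins bind RNA ends that lack the marks of host mRNA, and their genes lie together on chromosome 19. Ifit3 was at 117 TPM in the Klf4 library and 15.4 TPM in the MigRI library, a relative difference of 2.05, and Ifit1 was at 52.2 TPM in the Klf4 library and 7.38 TPM in the MigRI library, a relative difference of 1.87. Ifit2 was at 7.10 TPM in the Klf4 library and 1.71 TPM in the MigRI library, a relative difference of 0.78. All 3 were higher with Klf4 under every scaling tried. In the PD1+ cells Ifit3 was at 52.3 TPM in the cKO-labelled library and 14.9 TPM in control, Ifit1 at 15.8 TPM in the cKO-labelled library and 7.44 TPM in control, and Ifit2 at 4.34 TPM in the cKO-labelled library and 1.22 TPM in control. Their relative differences there were 1.01, 0.25 and 0.53, and that of Ifit3 lay just past the 2-fold line.

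The OAS family, on chromosome 5, makes oligoadenylates that activate RNase L, and some of its members have lost that activity. Oas1a was at 337 TPM in the Klf4 library and 47.3 TPM in the MigRI library, a relative difference of 2.01, and at 38.9 TPM in the cKO-labelled library and 8.19 TPM in control, a relative difference of 1.38. It was the OAS gene with the highest TPM in all 4 libraries. Oasl1, which in mouse restrains translation of Irf7 mRNA, was at 108 TPM in the Klf4 library and 7.55 TPM in the MigRI library, a 14.3-fold ratio, and at 4.39 TPM in the cKO-labelled library and 0.899 TPM in control. Oasl2 was at 99.2 TPM in the Klf4 library and 6.86 TPM in the MigRI library, and at 6.55 TPM in the cKO-labelled library and 2.85 TPM in control. The relative differences of Oasl1 were 2.88 and 0.77, and those of Oasl2 were 2.88 and 0.23. The low genes Oas2 and Oas3 were at 9.46 and 2.62 TPM with Klf4 and at 0.812 and 0.625 TPM with MigRI. They were at 0.726 and 1.31 TPM in the cKO-labelled library and at 0.321 and 0.712 TPM in control. All 5 OAS genes were higher with Klf4 under every scaling tried, and 4 of 5 by at least 2-fold once centred.

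Among the other antiviral effectors 3 genes that were below 10 TPM in the MigRI library stood out with Klf4. Rsad2 encodes viperin, a radical enzyme that makes a chain-terminating nucleotide, and Cmpk2, its neighbour on chromosome 12, encodes a mitochondrial nucleotide kinase. Rsad2 was at 125 TPM in the Klf4 library and 9.04 TPM in the MigRI library, a 13.8-fold ratio, and Cmpk2 was at 26.8 TPM in the Klf4 library and 1.88 TPM in the MigRI library, a 14.2-fold ratio. Ifi44 was at 42.7 TPM in the Klf4 library and 2.66 TPM in the MigRI library, a 16.0-fold ratio. The relative differences of Rsad2, Ifi44 and Cmpk2 were 2.86, 2.78 and 2.47. In the PD1+ cells Rsad2 was at 9.56 TPM in the cKO-labelled library and 2.62 TPM in control, Ifi44 at 3.73 TPM in the cKO-labelled library and 1.69 TPM in control, and Cmpk2 at 2.75 TPM in the cKO-labelled library and 1.17 TPM in control, with relative differences of 0.81, 0.08 and 0.05. All 3 genes were thus below 10 TPM in both libraries of PD1+ cells.

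Effectors that were abundant in the MigRI library as well did not pass 2-fold upward with Klf4 once centred. The MigRI level by which they are sorted here also enters the difference. Bst2, the tetherin that holds budding virions on the cell surface, was at 1737 TPM in the Klf4 library and 765 TPM in the MigRI library, and at 860.2 TPM in the cKO-labelled library and 368 TPM in control, with relative differences of 0.39 and 0.48. Isg20, an exonuclease for RNA, was at 190.1 TPM in the Klf4 library and 280.4 TPM in the MigRI library, a relative difference of -1.35, and at 595 TPM in the cKO-labelled library and 398 TPM in control, a relative difference of -0.16. Isg20 was lower with Klf4 in all scalings but that on the receptor constant genes. Ifi27l2a, which encodes a small hydrophobic protein, was at 343 TPM in the Klf4 library and 2157 TPM in the MigRI library, a relative difference of -3.44. It was at 2736 TPM in the cKO-labelled library and 6658 TPM in control, a relative difference of -2.02. Ifi27l2a was the highest member by TPM in all libraries but the Klf4 one, and it was lower in the Klf4 library and in the cKO-labelled library under every scaling tried that kept it, since removal of the 50 most abundant genes removed it. Ifi35, which binds the interferon-induced protein NMI, was at 412 TPM in the Klf4 library and 289 TPM in the MigRI library, and at 219 TPM in the cKO-labelled library and 61.5 TPM in control, and Rtp4 was at 218 TPM in the Klf4 library and 89.8 TPM in the MigRI library, and at 131 TPM in the cKO-labelled library and 37.1 TPM in control. These 2 genes passed 2-fold in the cKO-labelled library, with relative differences of 1.08 and 1.05, and not with Klf4, with relative differences of -0.29 and 0.47. The difference between the comparisons was not tested. The remaining effectors, Mx1, Mx2, Trim30a and Xaf1, had relative differences between -0.59 and 0.32 with Klf4 and between -0.33 and 0.41 in the cKO-labelled library. Mx1 and Mx2, dynamin-like GTPases that trap viral particles, stayed below 10 TPM in all 4 libraries. Xaf1, a partner of the apoptosis inhibitor XIAP, was at 159 TPM in the Klf4 library and 138 TPM in the MigRI library, and at 122 TPM in the cKO-labelled library and 91.9 TPM in control.

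PARP9 and DTX3L form a complex of an ADP-ribosyl transferase and a ubiquitin ligase, and PARP14 is a related transferase. Parp9 was at 25.2 TPM in the Klf4 library and 5.54 TPM in the MigRI library, a relative difference of 1.21, Dtx3l at 12.3 TPM in the Klf4 library and 4.01 TPM in the MigRI library, a relative difference of 0.61, and Parp14 at 4.95 TPM in the Klf4 library and 2.16 TPM in the MigRI library, a relative difference of 0.12. Parp9 alone passed 2-fold. In the PD1+ cells Parp9 was at 10.8 TPM in the cKO-labelled library and 8.98 TPM in control, Dtx3l at 6.93 TPM in the cKO-labelled library and 6.84 TPM in control, and Parp14 at 4.63 TPM in the cKO-labelled library and 5.25 TPM in control. Their relative differences there were -0.49, -0.72 and -0.89, so all 3 lay below the median gene, which held for no other role group, while as deposited the differences were 0.24, 0.02 and -0.15. Parp9 and Dtx3l lie head to head on chromosome 16 with overlapping exons, and the library kit does not mark strand, so their reads cannot be fully told apart.

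The 5 interferon-inducible GTPases, which act on the vacuoles of intracellular pathogens and answer strongly to interferon gamma, were the group with the highest median with Klf4, a relative difference of 2.49. Irgm1 was at 349 TPM in the Klf4 library and 26.96 TPM in the MigRI library, a 13.0-fold ratio, and at 47.2 TPM in the cKO-labelled library and 8.78 TPM in control, with relative differences of 2.85 and 1.56. Gbp2 was at 234 TPM in the Klf4 library and 20.96 TPM in the MigRI library, and at 24.9 TPM in the cKO-labelled library and 7.23 TPM in control, with relative differences of 2.63 and 0.92. Gbp3 was at 74.01 TPM in the Klf4 library and 6.70 TPM in the MigRI library, and at 13.8 TPM in the cKO-labelled library and 7.46 TPM in control, with relative differences of 2.49 and 0.07. Gbp2 and Gbp3 are neighbours on chromosome 3, and the other 3 GTPase genes lie on chromosome 11. Igtp was at 523 TPM in the Klf4 library and 76.6 TPM in the MigRI library, and at 82.6 TPM in the cKO-labelled library and 24.2 TPM in control, with relative differences of 1.96 and 0.99. Ifi47 was at 533 TPM in the Klf4 library and 83.3 TPM in the MigRI library, and at 107 TPM in the cKO-labelled library and 33.6 TPM in control, with relative differences of 1.87 and 0.91. All 5 passed 2-fold with Klf4 and were higher under every scaling tried, and 1 of 5, Irgm1, passed 2-fold in the cKO-labelled library. Related genes outside this group, read after their values were seen, were more mixed with Klf4. Relative differences were 2.19 for Irgm2, 1.51 for Tgtp2, 1.39 for Tgtp1 and 1.19 for Gbp7. They were 0.93 for Gbp9, 0.62 for Gbp5, 0.59 for Gbp4, 0.14 for Gbp6, -0.96 for Gbp8 and -1.22 for Gvin1. The exons of Igtp overlap those of its neighbour Irgm2, and those of Ifi47 overlap Olfr56.

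Set side by side, 30 of 41 members had a larger relative difference with Klf4 than in the cKO-labelled library, where 51.6% of all measured genes had. Irf1, Irf7, Irgm1, Oas1a and Ifit3 were at least 2-fold higher in both, which is 23.8% of the 21 higher with Klf4 and 71.4% of the 7 higher in the cKO-labelled library. Over all measured genes an overlap of 404 genes was 15.01% of those higher with Klf4 and 25.9% of those higher in the cKO-labelled library. Ifi27l2a was at least 2-fold lower in both. Called in opposite directions in the 2 comparisons were 0 members and 319 of the 12570 measured genes (2.54%). Across the 41 members the relative differences of both comparisons had a Pearson correlation of 0.61 and a Spearman correlation of 0.50, and across all 12570 measured genes 0.33 and 0.30, as a description over genes that share the same 4 libraries. Called in neither comparison were 14 members, among them Zbp1, Bst2, Usp18, Ddx58, Ifih1, Mx1 and Mx2.

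**Figure D3:**
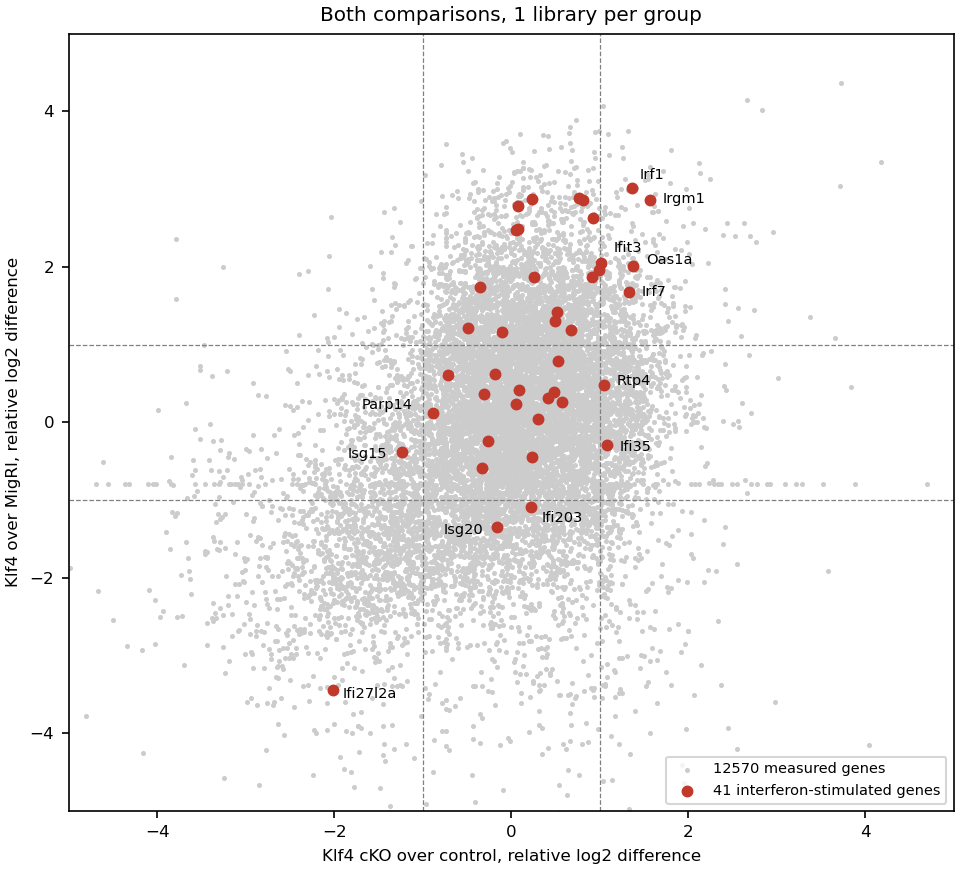
Relative log2 difference for the cKO-labelled library over control (horizontal) and for Klf4 over MigRI (vertical), for all measured genes (grey) and the 41 members (red), with dashed lines at 2-fold and 32 genes beyond 5 log2 not drawn. The members lie mostly above 0 on the vertical axis and around 0 on the horizontal one, and Irf1, Irgm1, Irf7, Oas1a and Ifit3 lie past 2-fold on both.

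Members at 100 TPM or more numbered 19 in the Klf4 library, 8 in the MigRI library, 9 in the cKO-labelled library and 5 in control. Summed over the 41 members the level was 8290 TPM in the Klf4 library and 5096 TPM in the MigRI library, and 6283 TPM in the cKO-labelled library and 8644 TPM in control. Without Ifi27l2a, left out after its values were seen, the sums were 7947 TPM and 2939 TPM in the first pair and 3547 TPM and 1985 TPM in the second. The order of the second pair thus turned on this single gene.

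Upstream of these genes few ligands were measured. Of 21 interferon genes 14 were listed at 0 in all 4 libraries and 2, Ifng and Ifnb1, reached a mean of 1 TPM. Ifng was at 1970.4 TPM in the Klf4 library and 931 TPM in the MigRI library, a relative difference of 0.29, and at 901 TPM in the cKO-labelled library and 203 TPM in control, a relative difference of 1.41. Ifnb1, the interferon beta gene, was at 15.3 TPM in the Klf4 library and 4.33 TPM in the MigRI library, and at 1.62 TPM in the cKO-labelled library, and was listed at 0 in control. As deposited, Ifng was thus higher in the Klf4 library and in the cKO-labelled library, and it passed 2-fold once centred in the second pair and not in the first, a contrast that was not tested.

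Among 8 measured receptor and kinase genes 1 was past 2-fold upward and 2 downward with Klf4 once centred, where 21.4% and 23.6% of all measured genes were, and 2 were higher and 1 lower in the cKO-labelled library, where 12.4% and 16.2% were. Ifngr2, the signalling chain of the interferon gamma receptor, was at 38.8 TPM in the Klf4 library and 3.70 TPM in the MigRI library, a relative difference of 2.29, and at 3.81 TPM in the cKO-labelled library and 2.25 TPM in control, a relative difference of -0.17. Ifngr1, the ligand-binding chain, was at 68.05 TPM in the Klf4 library and 121 TPM in the MigRI library, a relative difference of -1.62, and at 212 TPM in the cKO-labelled library and 58.2 TPM in control, a relative difference of 1.11. The 2 chains of this receptor thus lay on opposite sides of the median gene with Klf4. Ifnar1 and Ifnar2 encode the receptor of interferons alpha and beta. Ifnar1 was at 3.45 TPM in the Klf4 library and 3.00 TPM in the MigRI library, and at 4.29 TPM in the cKO-labelled library and 2.98 TPM in control, with relative differences of -0.64 and -0.33. Ifnar2 was at 73.8 TPM in the Klf4 library and 42.3 TPM in the MigRI library, and at 54.4 TPM in the cKO-labelled library and 14.4 TPM in control, with relative differences of -0.002 and 1.11. Jak1, the kinase that both receptors share, was at 26.3 TPM in the Klf4 library and 33.2 TPM in the MigRI library, and at 61.5 TPM in the cKO-labelled library and 119 TPM in control, with relative differences of -1.12 and -1.68. Il10rb, a chain of the interferon lambda receptor, was at 37.99 TPM in the Klf4 library and 22.1 TPM in the MigRI library, a relative difference of -0.04, and at 24.99 TPM in the cKO-labelled library and 8.79 TPM in control, a relative difference of 0.67.

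Of 15 measured STAT, IRF and adaptor genes 2 were past 2-fold upward and 1 downward with Klf4 once centred, and 1 was higher and 1 lower in the cKO-labelled library, so the higher shares were below those of all measured genes, 21.4% and 12.4%. Irf5, which myeloid cells use below Toll-like receptors, was at 56.5 TPM in the Klf4 library and 10.8 TPM in the MigRI library, a relative difference of 1.49. Mavs, the mitochondrial adaptor of the RNA helicases, was at 8.04 TPM in the Klf4 library and 1.44 TPM in the MigRI library, a relative difference of 1.10. Irf8, a factor of myeloid cells and activated lymphocytes, was at 148 TPM in the Klf4 library and 214 TPM in the MigRI library, a relative difference of -1.32. Myd88, the adaptor of Toll-like receptors, was at 84.2 TPM in the Klf4 library and 25.4 TPM in the MigRI library, and at 28.7 TPM in the cKO-labelled library and 7.21 TPM in control, with relative differences of 0.90 and 1.12. Irf2, a repressor that competes with IRF1, was at 19.1 TPM in the cKO-labelled library and 28.4 TPM in control, a relative difference of -1.29. Tmem173, which encodes the DNA pathway adaptor STING, was at 32.2 TPM in the cKO-labelled library and 9.18 TPM in control, a relative difference of 0.97. In the cKO-labelled library the relative differences of Irf5, Mavs and Irf8 were -0.23, -0.12 and 0.86. With Klf4 those of Irf2 and Tmem173 were 0.26 and 0.56.

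Among 11 measured brakes on interferon signalling 3 were past 2-fold upward and 0 downward once centred in each comparison, where 21.4% of all measured genes were higher and 23.6% lower with Klf4 and 12.4% higher and 16.2% lower in the cKO-labelled library. Socs3, a feedback inhibitor of JAK kinases, was at 70.6 TPM in the Klf4 library and 5.33 TPM in the MigRI library, a relative difference of 2.71. Irf2bp2, a partner of IRF2, was at 26.9 TPM in the Klf4 library and 5.28 TPM in the MigRI library, a relative difference of 1.36. Samhd1, which hydrolyses nucleotides, was at 123 TPM in the Klf4 library and 34.2 TPM in the MigRI library, and at 48.1 TPM in the cKO-labelled library and 13.04 TPM in control, with relative differences of 1.02 and 1.07. Ptpn6, the phosphatase SHP-1 of blood cells, was at 73.7 TPM in the Klf4 library and 84.7 TPM in the MigRI library, a relative difference of -0.99. Trex1, which degrades cytosolic DNA, was at 182 TPM in the cKO-labelled library and 47.8 TPM in control, a relative difference of 1.17. Ptpn2, a phosphatase that acts on JAK1, was at 60.04 TPM in the cKO-labelled library and 16.6 TPM in control, a relative difference of 1.06. In the cKO-labelled library the relative differences of Socs3, Irf2bp2 and Ptpn6 were 0.49, -0.88 and 0.41. With Klf4 those of Trex1 and Ptpn2 were -0.45 and 0.05.

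Of 49 further interferon-stimulated genes that were measured, 19 (38.8%) were past 2-fold upward and 8 (16.3%) downward with Klf4 once centred, against backgrounds of 21.4% and 23.6%. In the cKO-labelled library 9 (18.4%) were higher and 5 (10.2%) lower, against backgrounds of 12.4% and 16.2%. Cxcl10, a chemokine that draws in CXCR3-bearing T cells, was at 1660.1 TPM in the Klf4 library and 161 TPM in the MigRI library, and at 210.1 TPM in the cKO-labelled library and 19.5 TPM in control, with relative differences of 2.56 and 2.62. Ifitm1, a membrane protein that blocks viral entry, was at 109 TPM in the Klf4 library and 517 TPM in the MigRI library, and at 1425 TPM in the cKO-labelled library and 3815 TPM in control, with relative differences of -3.03 and -2.16. Like Ifi27l2a, Ifitm1 was an abundant gene and at least 2-fold lower in both comparisons, as deposited and once centred. Irgm2 was at 33.2 TPM in the Klf4 library and 3.32 TPM in the MigRI library, a relative difference of 2.19. Ifi30, a lysosomal thiol reductase of antigen processing cells, was at 111 TPM in the cKO-labelled library and 18.8 TPM in control, a relative difference of 1.77. Slfn2 was at 205 TPM in the cKO-labelled library and 424 TPM in control, a relative difference of -1.78. With Klf4 the relative differences of Ifi30 and Slfn2 were 1.47 and -0.03, and in the cKO-labelled library that of Irgm2 was -0.24.

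**Figure D4:**
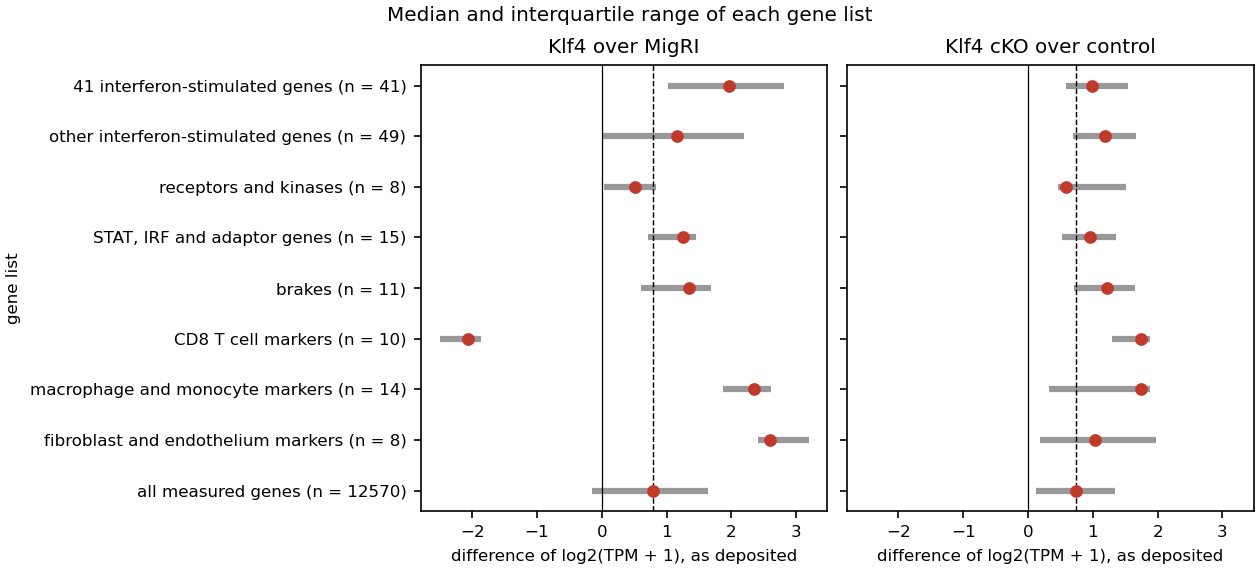
Median (points) and interquartile range (bars) of the difference of log2(TPM + 1), as deposited, over the measured genes of each list, for Klf4 over MigRI (left) and for the cKO-labelled library over control (right), with a dashed line at the median of all measured genes. The members lie to the right of that line in both panels, 1.96 against 0.79 on the left and 0.99 against 0.74 on the right. CD8 T cell markers lie to its left with Klf4. Further right than the members lie macrophage (2.34) and fibroblast (2.59) markers on the left. On the right so do CD8 T cell (1.75), macrophage (1.74) and fibroblast (1.03) markers, brakes (1.22) and other interferon-stimulated genes (1.19).

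Short transcripts took different shares of the libraries. Genes whose longest annotated transcript is shorter than 1000 nucleotides took 21.7% of all TPM in the Klf4 library and 38.8% in the MigRI library, and 41.3% in the cKO-labelled library and 54.9% in control. The median relative difference of the 1749 measured genes below that length was -1.13 with Klf4 and -0.47 in the cKO-labelled library. Ifi27l2a (463 nucleotides), Isg15 (756) and Bst2 (792) are the 3 members below it, and Isg20 (1087) lies just above. Of these 3, Ifi27l2a and Isg15 had relative differences below 0 in both comparisons and Bst2 above 0 in both, and the part of length in them was not tested. Across all measured genes with a length, log2 length and relative difference had a Pearson correlation of 0.28 and a Spearman correlation of 0.21 for Klf4 over MigRI, and 0.03 and -0.08 for the cKO-labelled library over control. Across the 41 members the values were 0.34 and 0.08 for Klf4 over MigRI and 0.08 and -0.31 for the cKO-labelled library over control. Each is a description across genes of the same libraries. Among the 38 longer members 21 (55.3%) were at least 2-fold higher with Klf4 once centred, where 25.4% of 10012 measured genes of that length were. In the cKO-labelled library 7 of 38 (18.4%) were higher, where 13.0% were.

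**Figure D5:**
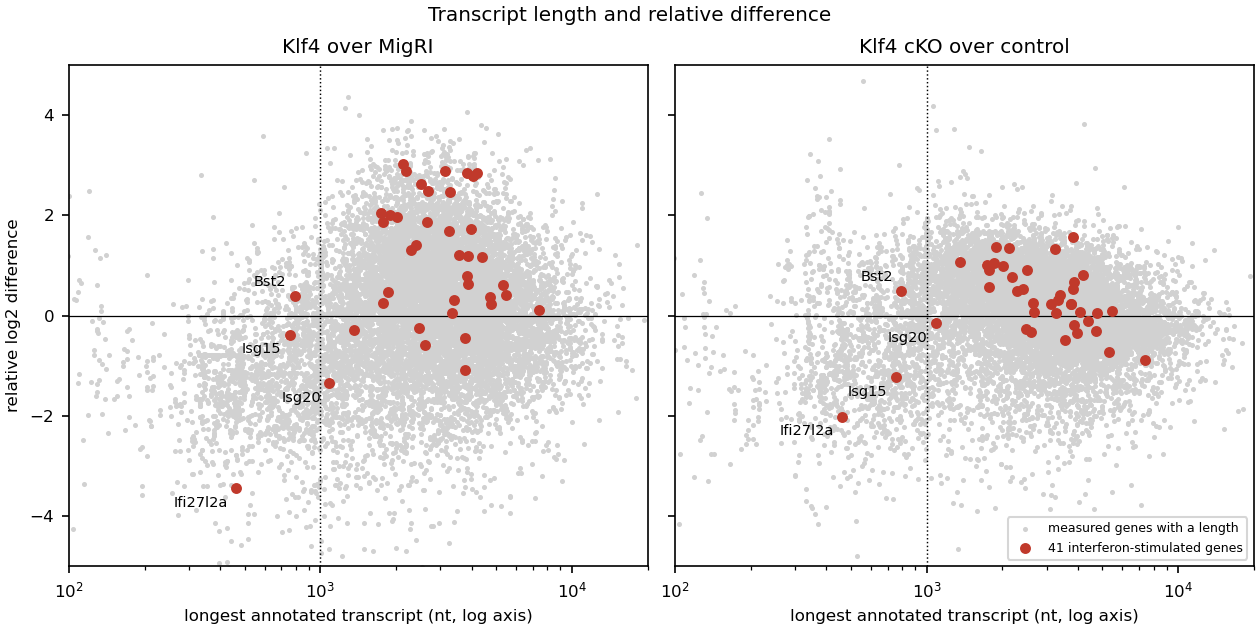
Longest annotated transcript (nucleotides, log axis) against relative log2 difference for measured genes with a length (grey) and the 41 members (red), for Klf4 over MigRI (left, 154 genes outside the axes) and for the cKO-labelled library over control (right, 142 genes outside), with a dotted line at 1000 nucleotides. Ifi27l2a, at 463 nucleotides, is the shortest and lowest member in both panels.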

How the data were processed

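TPM values, 1 table of 45777 entries per library, were deposited by the authors, per the file headers. Per the labels' protocols, TRI Reagent served for RNA extraction and the SMART-seq v4 low-input chemistry for cDNA. The submitters' processing notes name mm10, edgeR, StringTie, HISAT2 and Trimmomatic, with versions, roles and annotation not given in the sources used here. TPM scales each library to one total, so a few abundant transcripts lower all other values, and it keeps no depth.

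The control table held 26 symbols turned into dates. They were mapped back by name except for 4 genes behind 2 ambiguous dates, which left 45773 genes. Those averaging 1 TPM or more were called measured. Differences of log2(TPM + 1) were computed with Python 3.11.15, pandas 2.3.3 and numpy 2.4.6, as they stood and minus the median difference, and were called at 1 log2. Each group had 1 library, so no test was run, and counts are set beside those over all measured genes. Transcript lengths, gene positions and exon overlaps came from GENCODE vM21 on mm10 (93.6% of measured genes had a length), and promoters from RefSeq on GRCm38.p6, with all 5 printed sequences copied unchanged but for case.

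Members in full are those at least 2-fold different relative to the median gene in either comparison and at 10 TPM or more in some library, and all transcription factors and sensors. Others, including Oas2, Oas3, Ifit2, Usp18, Herc6, Bst2, Xaf1, Dtx3l and Parp14, were chosen after their values were seen. From each pathway list the 4 largest relative differences per comparison could be named, with Ifng and the receptor chains. The members and lists were chosen with earlier results of these data known. The gene Cgas was listed under its older symbol Mb21d1. Exons of 16 members overlap another annotated gene: Irf1, Irf7, Irf9, Dhx58, Usp18, Oasl1, Ifi35, Ifi47, Ifi203, Rtp4, Parp9, Parp14, Dtx3l, Gbp2, Igtp and Herc6. Such values, and those of close copies such as Oas1a and Oas1g or Ifit3 and Ifit3b, are uncertain.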

Additional observations from a re-analysis of the deposited data

How the results depend on the processing

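No paired analysis was possible because each group had 1 library. For Klf4 over MigRI 31 higher and 1 lower as deposited, and 21 higher and 3 lower with a median of 1.17 relative to the median gene, were set beside alternatives. The relative median was 1.10 with a pseudocount of 0.1, 0.81 with 5, 1.33 and 1.56 with filters at 5 and 10 TPM (33 and 29 members left), 1.13 without genes of mitochondria, ribosomal proteins and receptor segments, and 0.94 centred on genes of at least 1000 nucleotides. Without a filter the centre was 0, so the relative counts became 31 higher and 1 lower with a median of 1.96. Median of ratios scaling gave 20 higher and 3 lower as deposited and a relative median of 1.05, and quantile normalization gave 2 lower and 1.04. Without the 50 most abundant genes 0 were lower and the relative median was 1.19. Centred on Trac, Trbc1 and Trbc2, 40 were higher, 0 lower and the median was 3.98. That centre was -2.02, against 0.79 for the median gene, so every gene moved up by the same amount as the members. The share of all genes called on it was not counted. Both subsets of members were chosen after seeing the data: those of at least 1000 nucleotides gave 0 lower as deposited and a relative median of 1.20, and those with no exon overlap gave 18 higher as deposited, 12 relative and a median of 0.78.

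For the cKO-labelled library over control the base was 20 higher and 1 lower as deposited, and 7 higher and 2 lower with a median of 0.25 relative to the median gene. A pseudocount of 0.1 gave 4 lower and a median of 0.14, and 5 gave 1 lower and 0.34. Without a filter the relative counts were 20 higher and 1 lower with a median of 0.99, and filters at 5 and 10 TPM left 4 and 1 higher with medians of 0.17 and 0.069. Median of ratios scaling gave 4 higher and 2 lower as deposited, and 4 higher with a median of 0.13 relative. Quantile normalization gave 6 higher and 0 lower as deposited, and 3 higher with a median of 0.24 relative. Without genes of mitochondria, ribosomal proteins and receptor segments the median was 0.24, and without the 50 most abundant genes 0 were lower as deposited, 1 lower relative and the median was 0.24. Centred on Trac, Trbc1 and Trbc2 the sign of the median reversed to -0.77, with 0 higher and 12 lower. That centre was 1.76, against 0.74 for the median gene, so every gene moved down by the same amount as the members. The share of all genes called on that centre was not counted. Centred on genes of at least 1000 nucleotides, 4 were higher with a median of 0.17. Members of at least 1000 nucleotides gave 0 lower on both scales and a median of 0.28. Members with no exon overlap gave 9 higher as deposited, 3 relative and a median of 0.087. Apart from the removal of members, the cause of these shifts was not tested. The other 65 counts stayed within 1.5 times those reported, the lowest for Klf4 as deposited being 21 higher under quantile normalization and with a filter at 10 TPM, and need not hold the same genes. Depth is unknown, no value has an error, and genes near 1 TPM are least certain.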

Other observations

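The members with near-identical copies were compared with those copies, which were chosen after the values were seen. Oas1g was at 114 TPM in the Klf4 library and 14.7 TPM in the MigRI library, and at 9.83 TPM in the cKO-labelled library and 2.47 TPM in control, with relative differences of 2.08 and 0.91, beside 2.01 and 1.38 for Oas1a. Ifit3b was at 48.5 TPM in the Klf4 library and 4.53 TPM in the MigRI library, and at 16.7 TPM in the cKO-labelled library and 3.93 TPM in control, with relative differences of 2.37 and 1.11, beside 2.05 and 1.01 for Ifit3. Reads of such pairs can be split between the copies, so the single values are uncertain.

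Genes of the HIN family beyond the 2 members were also read after their values were seen. Ifi205 was at 113 TPM in the Klf4 library and 28.7 TPM in the MigRI library, and at 31.5 TPM in the cKO-labelled library and 6.66 TPM in control, with relative differences of 1.15 and 1.35. Ifi208 was at 1.29 TPM in the Klf4 library and 1.90 TPM in the MigRI library, and at 17.1 TPM in the cKO-labelled library and 6.61 TPM in control, with relative differences of -1.14 and 0.51. Ifi209 was at 13.97 TPM in the Klf4 library and 8.44 TPM in the MigRI library, and at 29.9 TPM in the cKO-labelled library and 11.7 TPM in control, with relative differences of -0.13 and 0.54. Ifi213 was at 17.97 TPM in the Klf4 library and 15.4 TPM in the MigRI library, and at 53.99 TPM in the cKO-labelled library and 20.9 TPM in control, with relative differences of -0.59 and 0.59. As deposited, Ifi209 and Ifi213 were higher with Klf4, by 0.67 and 0.21, so the side on which they lay depends on the centring.

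Holders and non-holders of the response element letters are set side by side without a test. Among the 16 members whose windows hold them, 9 were at least 2-fold higher and 1 lower with Klf4 relative to the median gene, with a median of 1.52, where 21.4% of all measured genes were higher and 23.6% lower. Among the 14 members whose windows lack them, 8 were higher and 1 lower, with a median of 1.43. In the cKO-labelled library 3 of 16 holders and 3 of 14 others were higher, with medians of 0.24 and 0.38. Of all measured genes 12.4% were higher there. For the gamma-activated site letters, also without a test, 3 of 7 holders and 14 of 23 others were higher with Klf4. Their medians were 0.78 and 1.68. In the cKO-labelled library 3 of 7 holders and 3 of 23 others were higher, with medians of 0.99 and 0.23.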
